A study of Aedes aegypti with 48 samples.

Results

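The genes described here are 3 chemosensory co-receptors, Orco (AAEL005776), Ir25a (AAEL009813) and Ir8a (AAEL002922), and 3 carbon dioxide receptor genes, Gr1 (AAEL002380), Gr2 (AAEL002167) and Gr3 (AAEL010058). They were taken by identifier and not by a cut on their values, though earlier results of these data were known when they were chosen. All 6 were found among the 19804 gene identifiers counted in the yellow fever mosquito Aedes aegypti. The study sequenced poly-A RNA from whole bodies of female mosquitoes of the Liverpool strain, either with a knockout of the Cycle gene (KO, AeCyc-/-) or wild type (WT). Pools of 10 females were collected 5 days after emergence from a cycle of 12 h light and 12 h dark, with no other treatment labelled. The time points were ZT1, ZT5 and ZT9 in the light and ZT13 in the dark, where ZT counts hours from lights on. Each of the 8 groups had 6 libraries labelled as biological replicates. The library labelled KO ZT13 replicate 1 held the same counts as WT ZT9 replicate 2 and was left out, so that KO ZT13 had 5 libraries and 47 libraries were used in all.

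Insects smell and taste through receptors that are ligand-gated channels built from several subunits. Orco is the partner that every odorant receptor needs to form a channel and to reach the sensory membrane. Ir25a and Ir8a play the same role for the ionotropic receptors, Ir8a mainly for receptors of acids such as lactic acid from sweat, Ir25a more widely, including amines, humidity and temperature. Gr1, Gr2 and Gr3 are gustatory receptors made in the carbon dioxide neurons of the maxillary palps, and in Ae. aegypti loss of Gr3 abolishes the response to carbon dioxide. These genes are active mostly in neurons of antennae, palps and mouthparts, which are a small part of a whole body. Cycle is a transcription factor of the circadian clock, and in Drosophila it pairs with Clock to switch on its target genes.

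In whole bodies the 3 co-receptors and Gr1 could be tested, while Gr2 and Gr3 were too low. Orco was lower in KO than in WT at ZT9, at 0.637 of the WT level, where 33.0% of all genes tested were called. It was also lower on average over the 4 time points, where 66.1% were called, but that call was lost without ZT9. Ir8a was slightly lower in KO at ZT5, where 31.0% were called, but most changes of the fit removed the Ir8a call. Ir25a and Gr1 passed the test in no comparison. None of the 4 testable genes was called for a change over time, beside 14.6% of all genes tested in WT and 9.26% in KO.

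Values below are counts scaled to a common library size (CPM), the usual unit for comparing the same gene between libraries, with library sizes adjusted by TMM factors. Libraries held between 10670669 and 33232780 reads on genes, so that 3 counts, the number that a count of 0 allows, corresponded to between 0.0877 and 0.312 CPM. CPM is not divided by gene length, and the levels of different genes were therefore not compared. Unless DESeq2 is named, p-values are from the quasi-likelihood test of edgeR, adjusted by Benjamini and Hochberg's method over all genes tested, and a gene is called at an adjusted p below 0.05. They measure the spread between these pools, and the KO is a single line. Cyc itself (AAEL002049) was counted in every KO library, at between 25.2 and 45.2 CPM. Its KO and WT ranges did not overlap at 3 of the 4 time points, with KO the lower. At ZT9, where WT libraries held 27.6 to 33.1 CPM and KO libraries 25.2 to 33.7 CPM, the groups overlapped and Cyc does not check the labels. The eye opsin AAEL006259 was abundant in every library, at 6534 CPM or more, so that heads were present in the pools.

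**Figure D1:**
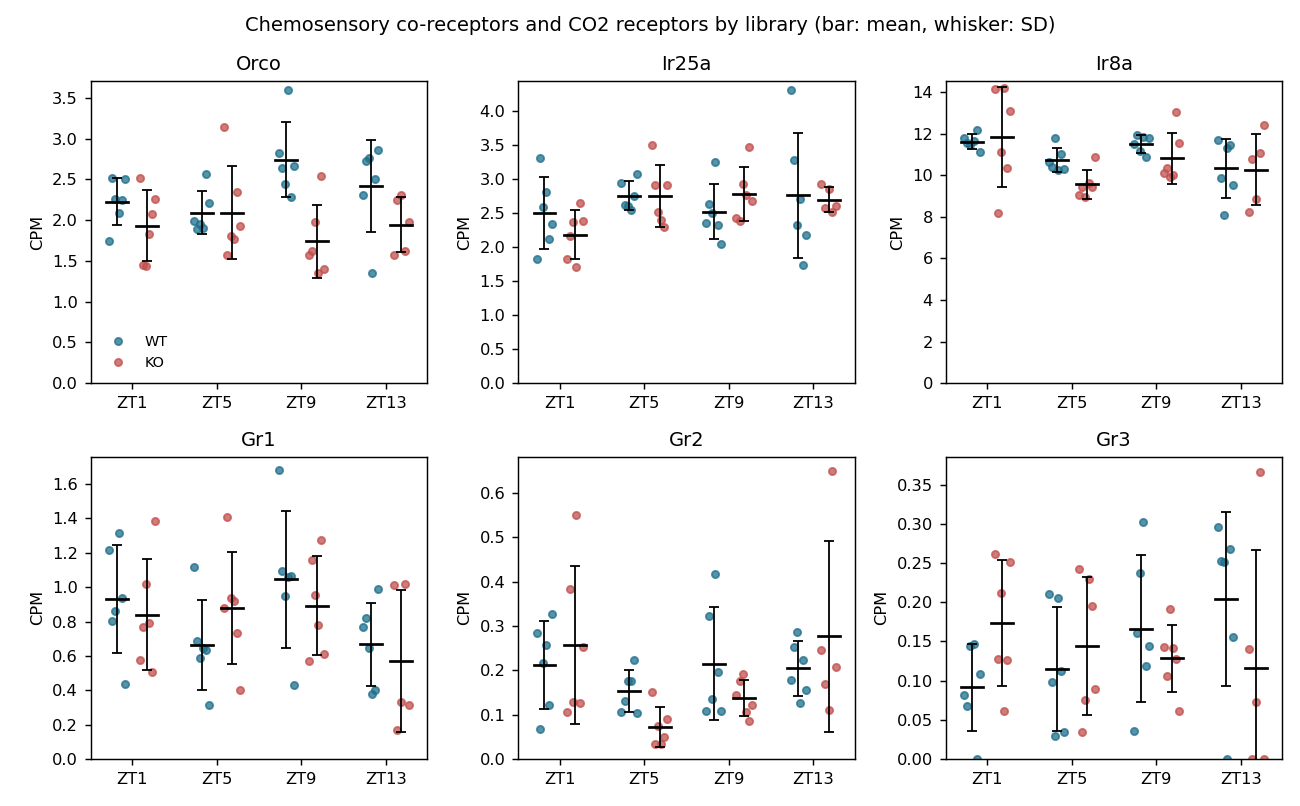
CPM of each of the 6 genes (vertical axes, starting at 0) by time point, with 1 point per library, WT in blue and KO in red, horizontal bars at the group mean and whiskers of 1 SD (n = 6, or 5 for KO ZT13). In Orco at ZT9, Ir8a at ZT5 and Gr2 at ZT5, 5 of 6 KO libraries sit below all WT libraries, while Gr2 and Gr3 stay below 1 CPM in every library.

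Orco was counted in all 47 libraries, with 19 to 104 reads each (median 54). At ZT9 the WT libraries held 2.83, 2.64, 2.44, 3.59, 2.28 and 2.67 CPM, with a mean of 2.74 ± 0.458 (SD, n = 6). The KO libraries at ZT9 held 1.57, 1.62, 1.97, 1.35, 2.54 and 1.41 CPM, with a mean of 1.74 ± 0.449 (SD, n = 6). Thus 5 of 6 KO libraries were below every WT library, and only KO replicate 5 lay within the WT range. The log2 fold change of KO over WT was -0.65 (SE 0.17, 95% interval -1.02 to -0.28), and the edgeR quasi-likelihood test gave an adjusted p of 0.0128. Orco was 1 of 4 testable genes of the set called at ZT9, where 33.0% of the 11673 genes tested were called and 16.7% were called lower in KO. The median log2 fold change of the 4 was -0.16, against -0.00 over all genes. With each of the 12 libraries left out in turn, the log2 fold change of Orco at ZT9 ranged from -0.78 to -0.56 and its adjusted p from 0.00495 to 0.0295. Without WT ZT9 replicate 2, the library that also carries the KO ZT13 label, it was -0.66 with an adjusted p of 0.0219.

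At the other time points the Orco levels of the genotypes overlapped more widely. At ZT1 WT libraries held 1.75, 2.52, 2.26, 2.09, 2.24 and 2.50 CPM and KO libraries 2.51, 1.45, 1.44, 1.83, 2.08 and 2.26 CPM. There, 2 KO libraries were below all WT libraries, and the log2 fold change was -0.23 (SE 0.17, edgeR quasi-likelihood adjusted p = 0.284). At ZT5 the group means were 2.09 ± 0.263 CPM for WT and 2.09 ± 0.574 CPM for KO (SD, n = 6 each). KO over WT gave a log2 fold change of -0.01, with a 95% interval of -0.38 to 0.36. The KO libraries at ZT5 were more widely spread than the WT libraries, with KO replicate 1 at 3.15 CPM above all others.

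At ZT13 the WT libraries held 2.31, 2.72, 2.76, 1.35, 2.51 and 2.86 CPM of Orco. The KO libraries held 1.57, 2.24, 2.31, 1.63 and 1.98 CPM, and all of them lay inside the WT range because of WT replicate 4. The log2 fold change was -0.33 (SE 0.20, 95% interval -0.75 to 0.09), with an adjusted p of 0.208 by the edgeR quasi-likelihood test. That test called Orco at ZT13 once WT replicate 4 was left out, with a log2 fold change of -0.46 and an adjusted p of 0.0381. WT replicate 4 thus decided the call at this time point.

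Averaged over the 4 time points, Orco was at 0.811 of the WT level in KO (log2 fold change -0.30, SE 0.09, 95% interval -0.48 to -0.13, edgeR quasi-likelihood adjusted p = 0.00254). It was the 1 of 4 called for the mean over times, a comparison in which 66.1% of 12344 genes were called, 31.7% lower and 34.5% higher in KO. The median log2 fold change of the 4 was -0.05, against 0.01 over all genes. The call for the mean was lost without ZT9, the time point with the largest difference, where the mean of the other 3 was -0.18 with an adjusted p of 0.117. Although the KO difference was called at ZT9 and not at ZT1, ZT5 or ZT13, the test of the genotype by time interaction did not show that it differed between time points (edgeR quasi-likelihood adjusted p = 0.392).

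In order, the Orco group means ran from WT ZT9 through WT ZT13, WT ZT1, KO ZT5, WT ZT5, KO ZT13 and KO ZT1 down to KO ZT9, with a ratio of 1.57 between the first and the last. None of the 7 neighbouring pairs in this order differed by more than the smaller of their SDs, and the largest gap was 0.323 CPM. The 3 other genes whose 8 group means on the log2 CPM scale were most like those of Orco were AAEL009375 (Pearson's r = 0.97), AAEL011427 (r = 0.96) and AAEL001395 (r = 0.96), out of 12343 genes. This is a description over 8 group means of the same libraries and was not tested.

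**Figure D2:**
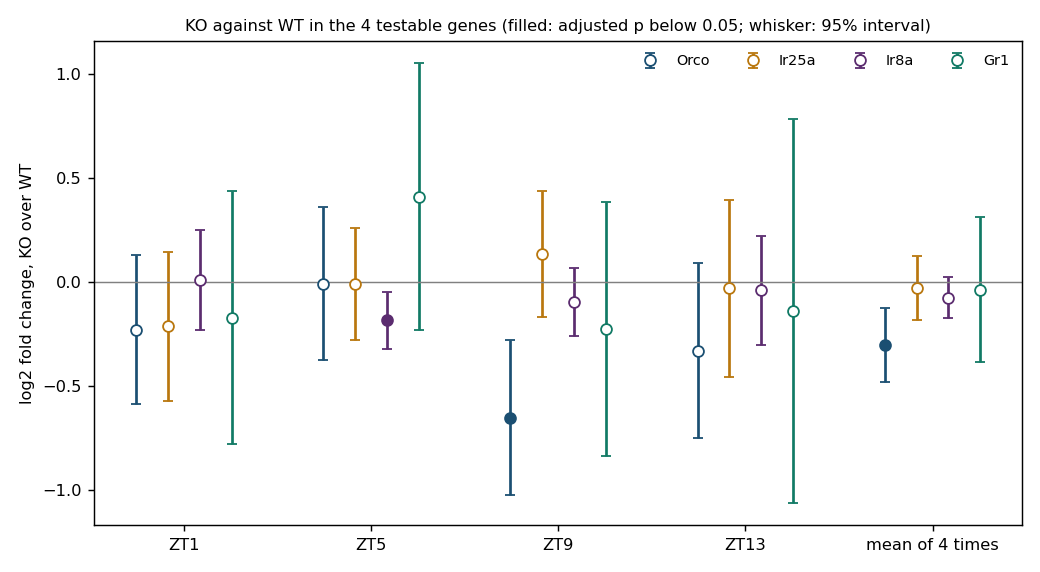
Log2 fold change of KO over WT (vertical axis) for Orco, Ir25a, Ir8a and Gr1 at each time point and for the mean of the 4 time points, with 95% intervals as whiskers. Filled points have an adjusted p below 0.05, which are Orco at ZT9 (-0.65) and for the mean (-0.30) and Ir8a at ZT5 (-0.18), and the intervals of Gr1 are the widest.

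Whole bodies hold many cell types, and in such samples fewer cells of a type and less RNA per cell cannot be told apart. The eye opsin AAEL006259 was the only head marker of high level here. It is no steady measure of head content, since it changed over time in WT, with means from 7145 CPM at ZT1 to 9677 CPM at ZT9 (edgeR quasi-likelihood adjusted p = 0.00228). At ZT9 the opsin was at 9677 ± 1392 CPM for WT and 9803 ± 1208 CPM for KO (SD, n = 6 each). Its log2 fold change was 0.02 (edgeR quasi-likelihood adjusted p = 0.914) beside -0.65 for Orco. At ZT1 and ZT13 this opsin was higher in KO, with log2 fold changes of 0.49 (adjusted p = 4.59e-04) and 0.40 (adjusted p = 0.00363), while Orco had negative values. The other 2 eye opsins of the list, AAEL005621 and AAEL005625, are named by the paper as upregulated in these samples. They were higher in every KO library than in any WT library at ZT5 and ZT13, but the groups overlapped at ZT1 and ZT9. AAEL005621 was still called higher in KO at ZT1 (log2 fold change 3.22, edgeR quasi-likelihood adjusted p = 0.00165) and ZT9 (3.04, adjusted p = 0.0212). At ZT9 the KO libraries of AAEL005621 ran from 0.159 to 18.3 CPM and the WT libraries from 0.407 to 0.567 CPM, with the highest value in KO replicate 4, and AAEL005625 did not pass the filter on low counts at ZT1 or ZT9. Apart from the chemosensory genes named here, no markers of antennae or palps were analysed. At ZT9 the log2 fold changes of Ir25a, Ir8a and Gr1 were 0.14, -0.09 and -0.22, none of them called. The part of tissue content in the Orco difference was not tested.

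Ir25a was counted in all 47 libraries, with 25 to 116 reads each (median 67). The KO and WT group means were close at every time point. They were 2.19 ± 0.358 and 2.50 ± 0.530 CPM at ZT1, 2.76 ± 0.452 and 2.76 ± 0.211 CPM at ZT5, and 2.78 ± 0.397 and 2.52 ± 0.408 CPM at ZT9 (SD, n = 6 each). At ZT13 they were 2.70 ± 0.185 CPM in KO (SD, n = 5) and 2.76 ± 0.922 CPM in WT (SD, n = 6), where WT libraries ran from 1.75 to 4.32 CPM and enclosed all KO libraries. The 4 log2 fold changes lay between -0.21 and 0.14, with adjusted p-values from 0.323 to 0.965 by the edgeR quasi-likelihood test. The mean over times was -0.03 with a 95% interval of -0.18 to 0.13 and an adjusted p of 0.775.

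The order of the Ir25a group means placed KO ZT9 first and KO ZT1 last, with a ratio of 1.27. The gap of 0.315 CPM between WT ZT1 and KO ZT1 was the largest between neighbours, and none of the 7 gaps passed the smaller SD. The interaction test for Ir25a gave an adjusted p of 0.736. Genes most like Ir25a over the 8 group means were AAEL008505 (r = 0.98), AAEL012066 (r = 0.96) and AAEL002849 (r = 0.93). AAEL012066 was low, with group means of at most -0.93 log2 CPM.

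Ir8a had the most reads of the 6 genes, 119 to 403 per library (median 276), which counts no length. Its level ran from 9.56 CPM in KO ZT5 to 11.8 CPM in KO ZT1, a ratio of 1.24. In the order of group means, 2 of 7 neighbouring pairs differed by more than the smaller of their SDs, and the largest gap was 0.711 CPM. At ZT5 the WT libraries held 10.6, 10.4, 11.8, 10.3, 11.0 and 10.3 CPM. The KO libraries at ZT5 held 9.04, 9.44, 8.97, 9.61, 9.41 and 10.9 CPM, so that 5 of 6 lay below all WT libraries and KO replicate 6 lay among them. The log2 fold change was -0.18 (SE 0.06, 95% interval -0.32 to -0.04), which is 0.882 of the WT level, with an adjusted p of 0.0450 by the edgeR quasi-likelihood test. Ir8a was the 1 of 4 called at ZT5, where 31.0% of 11737 genes were called and 15.5% were called lower in KO. The median log2 fold change of the 4 was -0.01, against 0.01 over all genes.

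The Ir8a call at ZT5 was fragile. It was lost when any of 11 of the 12 libraries was left out, with adjusted p-values up to 0.0857, and kept only without KO replicate 6, where the log2 fold change was -0.22 and the adjusted p 0.0171. It was also lost without the filter on low counts (adjusted p = 0.0667) and in a single fit of 47 libraries (adjusted p = 0.147). All alternatives gave a negative value, between -0.22 and -0.16 on the log2 scale.

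**Figure D3:**
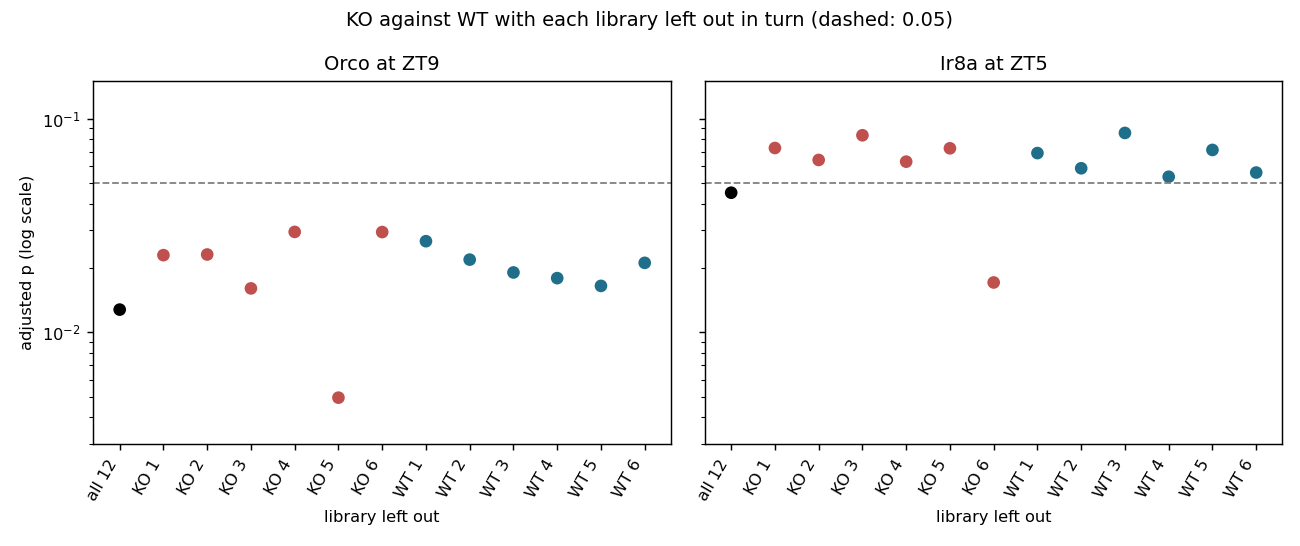
Adjusted p (vertical axis, log scale) for KO against WT with all 12 libraries (black) and with each KO (red) or WT (blue) library left out, for Orco at ZT9 and Ir8a at ZT5, with the dashed line at 0.05. Every Orco point lies below the line (0.00495 to 0.0295), while 11 of the 12 Ir8a points lie above it.

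At the other time points Ir8a did not pass the test, and its log2 fold changes were 0.01 for ZT1, -0.09 for ZT9 and -0.04 for ZT13, with adjusted p-values from 0.360 to 0.947 by the edgeR quasi-likelihood test. The mean over times was -0.07 (95% interval -0.17 to 0.02, adjusted p = 0.18), and the interaction test gave an adjusted p of 0.769. At ZT1 the KO libraries held 14.1, 8.18, 11.1, 14.2, 10.3 and 13.1 CPM, with 2 below and 3 above all WT libraries. The WT libraries at ZT1 held 11.8, 11.5, 11.5, 11.6, 12.1 and 11.1 CPM. The coefficient of variation was 20.1% in KO and 2.97% in WT there, the widest and the narrowest of the 8 groups, and the difference in spread was not tested. The genes most like Ir8a over the 8 group means were AAEL002625 (r = 0.93), AAEL012026 (r = 0.93) and AAEL028042 (r = 0.92), again untested. AAEL002625 and AAEL028042 were low, with group means of at most -1.72 and -1.57 log2 CPM. For AAEL002625 the mean log2 fold change of KO over WT was -1.53, unlike the -0.07 of Ir8a.

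Of the carbon dioxide receptor genes, Gr1 was the only one with enough reads to test, at 3 to 47 per library (median 22). It reached 1 CPM in 14 of the 47 libraries. At ZT9 the WT libraries held 1.68, 1.10, 0.950, 1.06, 1.06 and 0.432 CPM and the KO libraries 0.572, 1.16, 0.955, 0.780, 1.27 and 0.611 CPM, all of which lay within the WT range. The log2 fold change was -0.22 (95% interval -0.83 to 0.39, edgeR quasi-likelihood adjusted p = 0.572). At ZT5 Gr1 had means of 0.879 ± 0.326 CPM for KO and 0.664 ± 0.261 CPM for WT (SD, n = 6 each). KO over WT gave a log2 fold change of 0.41 (95% interval -0.23 to 1.05, adjusted p = 0.316). At ZT1 and ZT13 the log2 fold changes were -0.17 and -0.14.

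At ZT13 the KO libraries varied widely for Gr1, with 1.01 and 1.02 CPM in replicates 2 and 5 (29 and 25 reads). Replicates 3, 4 and 6 held 0.169, 0.330 and 0.312 CPM, which rested on 4, 9 and 3 reads. Replicate 6 was the library with the fewest reads on genes. As a result 2 KO libraries were above and 3 were below every WT library, which ran from 0.380 to 0.989 CPM. Over the 4 time points the mean log2 fold change was -0.03 with a 95% interval of -0.38 to 0.32 (edgeR quasi-likelihood adjusted p = 0.874), and the interaction test gave an adjusted p of 0.754. Gr1 group means ran from 1.05 CPM in WT ZT9 to 0.57 CPM in KO ZT13, a ratio of 1.84, and no neighbours in the order of groups differed by more than the smaller SD. Its closest genes over the 8 group means were AAEL022190 (r = 0.97), AAEL000571 (r = 0.95) and AAEL001203 (r = 0.93).

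**Figure D4:**
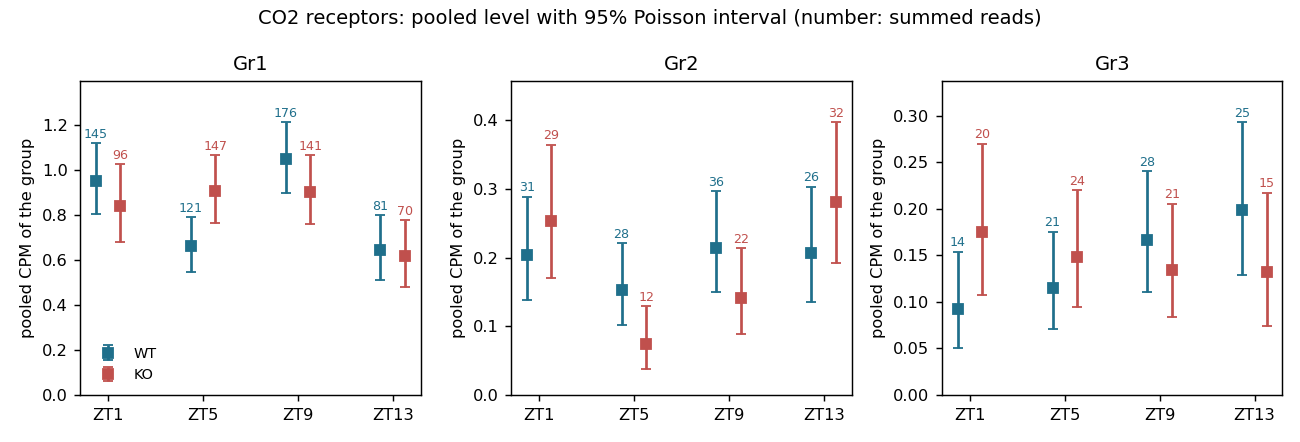
Pooled CPM (reads summed over the libraries of a group, vertical axes starting at 0) of Gr1, Gr2 and Gr3 by time point, WT in blue and KO in red, with exact 95% Poisson intervals as whiskers and the summed reads printed above them. Gr2 ranges from 12 summed reads in KO ZT5 to 36 in WT ZT9, and most Gr2 and Gr3 intervals overlap.

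Gr2 and Gr3 did not pass the filter on low counts in any fit with all libraries and are described only, apart from fits without that filter. Gr2 had 216 reads over 47 libraries, 1 to 16 in each (median 4), at 0.0328 to 0.650 CPM. Its lowest group was KO ZT5, with 12 reads over 6 libraries, 0.0740 CPM when pooled (exact 95% Poisson interval 0.0382 to 0.129). WT ZT5 held 28 reads, 0.153 CPM pooled (0.102 to 0.221). The KO ZT5 libraries held 5, 1, 2, 1, 1 and 2 reads, and the WT ZT5 libraries 3, 4, 6, 6, 6 and 3 reads, with 5 of 6 KO libraries below all WT libraries in CPM. The intervals cover counting error only. Of the 7 neighbouring pairs in the order of Gr2 group means, 2 differed by more than the smaller SD, with a largest gap of 0.0652 CPM.

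The highest Gr2 mean was in KO ZT13, at 0.277 CPM, and it rested on KO replicate 5, which held 16 reads (0.650 CPM) against 2 to 7 in the other 4 libraries. The same library also had the most Gr3 reads of its group, 9, and the highest Gr1 level, 1.02 CPM. KO replicate 2 was second in all 3 genes at ZT13, with 1.01 CPM of Gr1, 7 reads of Gr2 and 4 reads of Gr3.

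Gr3 had 168 reads in all, 0 to 9 per library (median 3), at up to 0.366 CPM. No Gr3 read was counted in 4 libraries, 2 of KO ZT13, 1 of WT ZT1 and 1 of WT ZT13, which allows up to 3 counts in each. The group means lay between 0.0912 CPM in WT ZT1 and 0.204 CPM in WT ZT13. Pooled levels at ZT1 were 0.175 CPM in KO (20 reads, Poisson interval 0.107 to 0.270) and 0.0918 CPM in WT (14 reads, 0.0502 to 0.154), and these intervals overlapped. Differences between genotypes in Gr3 were not detectable at this depth.

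Scatter between libraries of a group showed how far each gene was limited by counting. The variance within groups was 1.39 times that of pure counting for Gr2 and 1.40 times for Gr3, and between 2.05 and 3.25 times for the other 4 genes.

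Of the 4 testable genes, 0 were called at ZT1 or ZT13. There, 47.1% and 35.5% of all genes tested were called, and 22.7% and 17.0% were called lower in KO. None of the 4 testable genes had an unadjusted p below 0.05 there, and DESeq2 also called 0. The median log2 fold change of the 4 was -0.19 at ZT1 and -0.09 at ZT13, against 0.02 and 0.00 over all genes. For the genotype by time interaction, 1.30% of genes were called and 0 of the 4, with 0 at an unadjusted p below 0.05 and 0 by DESeq2.

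Levels over time did not pass the test in either genotype. In WT, 14.6% of 11982 genes were called over the 4 time points and 0 of the 4 genes were, with adjusted p-values of 0.262 for Orco, 0.864 for Ir25a, 0.211 for Ir8a and 0.250 for Gr1 by the edgeR quasi-likelihood test. In KO, 9.26% of 11989 genes were called and again 0 of the 4, with adjusted p-values of 0.734, 0.179, 0.235 and 0.589 in the same order. In both genotypes 0 of the 4 had an unadjusted p below 0.05, and DESeq2 called 0. The WT means of Orco, 2.23, 2.09, 2.74 and 2.42 CPM at ZT1, ZT5, ZT9 and ZT13, and those of KO, 1.93, 2.09, 1.74 and 1.95 CPM, are therefore given without an order in time.

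Among other chemoreceptors, the paper names 3 by identifier, which the study chose on these samples, so that their direction is not independent evidence. The gustatory receptor gene Gr11 (AAEL011174) was the only one that passed the filter on low counts, and it was higher in KO. Its means were 24.8 ± 1.96 and 18.0 ± 2.88 CPM in KO and WT at ZT1, 19.4 ± 3.17 and 13.4 ± 2.41 CPM at ZT9 (SD, n = 6 each), and 22.0 ± 2.64 (SD, n = 5) and 14.4 ± 0.949 CPM (SD, n = 6) at ZT13. The log2 fold changes there were 0.45, 0.54 and 0.59, with adjusted p-values of 0.00164, 0.00680 and 1.23e-04 by the edgeR quasi-likelihood test, and at ZT5 the value was 0.18 (adjusted p = 0.162). At ZT9, 4 of 6 KO libraries were above all WT libraries for Gr11. KO replicate 5 held the highest KO level there of both Gr11 (22.8 CPM) and Orco (2.54 CPM). The same library was also the highest KO library at ZT9 for Ir25a, Ir8a, Gr1 and the eye opsin AAEL006259. It was the lowest for Gr2, and not the highest for Gr3, the opsins AAEL005621 and AAEL005625 or the paper's other named chemoreceptors. Whether its Orco level reflects a shift shared by these genes was not tested. Gr9 (AAEL000075), with 64 reads in all, and the odorant receptor gene AAEL005680, with 233 reads, fell below that filter in the main fits. Without the filter, the edgeR quasi-likelihood test called both higher in KO at ZT1 (adjusted p = 0.00709 and 0.0393). It also called both for the mean over times (adjusted p = 0.0399 and 0.00184), and neither at ZT5, ZT9 or ZT13. In the fits with the filter, 24.5% of all genes tested were called higher in KO at ZT1, 16.3% at ZT9, 18.6% at ZT13 and 34.5% for the mean.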

How the data were processed

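The authors trimmed the reads with Trim Galore 0.6.6, aligned them to VectorBase's AaegL5_2 using HISAT2 2.2.1, and obtained reads per gene from HTSeq 0.11.3. They deposited raw counts for 48 libraries, without normalization. Whether strand was used is not given in the sources, so reads of overlapping genes cannot be told apart. The 5 summary lines, 68.3% to 81.6% of a library's total, name no gene and were left out.

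From these counts, edgeR 4.0.16 in R 4.3.3 was run on all genes with TMM factors, filterByExpr (minimum count 10), the quasi-likelihood test and Benjamini-Hochberg adjustment. Genotypes were compared within each time point. The mean over times and the interaction came from 47 libraries with a mean per group, and time from the libraries of each genotype. Alternatives were DESeq2 1.42.0, its size factors, no filter, a replicate block, a single fit and libraries left out. The steps were tested on simulated data.

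The 6 genes and the other lists were chosen with earlier results of these data known. Named beside the 6 are Cyc, 3 opsins, the 3 chemoreceptors named by the paper and, per testable gene, the 3 with the highest Pearson's r over the group means of log2 CPM (prior count 2). Of 19804 identifiers, 0 matched the reference table, so gene lengths, sequences and other marker lists were not used here. A count of 0 was read as allowing 3 counts, and Poisson intervals are at 95%.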

Additional observations from a re-analysis of the deposited data

Results flagged for a closer look

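In 3 of the 48 combinations of gene and group, 1 library stood apart from the others by Dixon's criterion, which chance gives in about 1 of 20 groups. Orco in WT ZT13 replicate 4 was at 1.35 CPM (32 reads), with the nearest library at 2.31 CPM. Ir8a in KO ZT5 replicate 6 was at 10.9 CPM (242 reads), with the nearest at 9.61 CPM. Gr2 in KO ZT13 replicate 5 was at 0.65 CPM (16 reads), with the nearest at 0.245 CPM. The first 2 bear on calls, since Orco was called at ZT13 without the first and the Ir8a call at ZT5 was kept in 1 of 12 fits with a library left out, the one without the second.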

How the results depend on the processing

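Of 420 alternative values of single genes, 363 kept their side of the threshold and, for fold changes, their direction. A call was lost in 15 and gained in 2, and 40 changed sign, none of these 40 a called value. The values for the interaction and time tests are adjusted p-values, which have no direction. Causes were not tested. The 14 losses of Ir8a at ZT5 left 0 of the 4 genes called, without the filter, with the replicate block, in the single fit and across libraries left out (0 to 1). Orco at ZT9 kept its call under all 17 alternatives, with adjusted p-values from 0.00177 (DESeq2's Wald test) to 0.0411 (edgeR with the replicate block) where no library was left out. Leaving out libraries gave 0 to 1 genes called at ZT13 and 1 to 2 for the mean over times, the 2 without replicate 6 (Ir8a -0.13, edgeR quasi-likelihood adjusted p = 0.0356), and the mean without ZT9 gave 0. The means without a replicate number or without a time point were chosen after seeing the data.

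Over all genes, 2129 were called at ZT13 with KO ZT13 replicate 1 (4095 without it), 357 for the interaction (161) and 1964 for time in KO (1110) by DESeq2's likelihood ratio test, and 684 to 983 for time in KO with KO ZT13 libraries left out. Of the 3 other chemoreceptors, the fit without a filter called 3 at ZT1, 3 for the mean and 0 for time in KO, against 1 each. At ZT1 that fit called 5370 of 16773 genes in either direction.

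Within a time point, 1 of 23 same-numbered pairs of KO and WT libraries had a correlation of deviations over 0.1. Only 3 KO libraries correlated best with the WT library of their own number. Such correlations cannot decide whether libraries of the same number shared a batch. Correlations between libraries of the same number at different time points were not examined. With the replicate block, Ir8a at ZT5 was -0.18 (adjusted p = 0.113), Orco at ZT9 -0.67 (adjusted p = 0.0411) and Orco for the mean -0.30, and the sign changed for Ir8a at ZT1 (-0.0087), Ir25a at ZT13 (0.14) and Ir8a at ZT13 (0.0039).

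The other sign changes follow. Ir8a at ZT1 was -0.0027 with DESeq2's size factors, -0.0045 without the filter and -0.0037 by DESeq2. With KO ZT13 replicate 1, Ir8a at ZT13 was 0.0069, Gr1 at ZT13 0.061 and the Gr1 mean 0.021. Without ZT1 the Ir25a mean was 0.032 and the Gr1 mean 0.010, and the Gr1 mean was 0.029 without ZT9 and 0.0085 without ZT13. With libraries left out, values ran from -0.045 to 0.097 for Ir8a at ZT1, -0.17 to 0.058 for Orco and -0.094 to 0.033 for Ir25a at ZT5, -0.13 to 0.14 for Ir25a, -0.10 to 0.031 for Ir8a and -0.47 to 0.11 for Gr1 at ZT13, -0.082 to 0.017 for the Ir25a mean and -0.16 to 0.15 for the Gr1 mean.

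Depth limits Gr2 and Gr3. Without the filter, Gr2 at ZT5 had a log2 fold change of -1.03 (edgeR quasi-likelihood adjusted p = 0.132). The same test without the filter gave Gr2 an adjusted p of 0.0791 for time in KO. The levels of different genes could not be ranked, because no gene lengths were matched. Requiring 1 CPM in 5 libraries also left 4 of the 6 genes.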
